A study of Mus musculus with 12 samples.

Results

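The 37 genes described here encode the enzymes and the sugar and lactate transporters of glycolysis with the pyruvate dehydrogenase kinases (26 genes) and the core of the cellular response to low oxygen (11 genes). They were listed by gene symbol for their known roles, with earlier results of these data known. Shares set beside those of all genes therefore only describe the list. All 37 were found among the 24346 genes of the table. Of these, 33 reached 0.5 FPKM in at least 3 of the 12 libraries and were tested, 24 of the glycolysis group and 9 of the hypoxia group. FPKM scale the fragments of a gene to its transcript length and to the size of the library, so levels can be compared between genes per unit of length.

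The libraries came from 2 mouse fibroblast lines. NIH-3T3 was derived from embryos of NIH/Swiss mice, and MLg, named CCL206 in the sample titles, from the lung of newborn ddY mice. Cells at 85% confluence were kept in medium with 0.5% serum and given SHHN, the amino-terminal signalling fragment of Sonic hedgehog, at 1 µg/ml, or vehicle alone, for 48 h. Each of the 4 groups had 3 libraries of total RNA, and the labels name no treatment with low oxygen. Each tissue and strain is represented by 1 immortal line, so line, strain, tissue and age cannot be told apart.

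Glycolysis converts glucose to pyruvate in the cytosol, and lactate dehydrogenase reduces pyruvate to lactate, which leaves the cell through monocarboxylate transporters. Pyruvate dehydrogenase kinases phosphorylate and inhibit the complex that admits pyruvate to the mitochondrial citric acid cycle. Most steps of glycolysis have several isoenzymes from separate genes. When oxygen is low, prolyl hydroxylases no longer mark hypoxia-inducible factor alpha subunits for destruction, and the stabilised factor binds DNA with ARNT at short sites with the core ACGTG or GCGTG. Many glycolytic enzymes, and feedback genes such as the hydroxylases themselves, are known targets of this factor. SHHN acts through PTCH1 and SMO on GLI transcription factors.

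The upstream promoter sequences of 6 members with a large SHHN effect or a large difference between lines are shown here because these genes are described at length in what follows. Each is the 250 bases before a RefSeq transcript start (build GRCm38.p6), 5′ to 3′ on the strand of the gene, and capitals mark ACGTG and GCGTG or their reverse complements CACGT and CACGC, which can overlap.
Hk2, chr6:82774455-82774704, minus strand: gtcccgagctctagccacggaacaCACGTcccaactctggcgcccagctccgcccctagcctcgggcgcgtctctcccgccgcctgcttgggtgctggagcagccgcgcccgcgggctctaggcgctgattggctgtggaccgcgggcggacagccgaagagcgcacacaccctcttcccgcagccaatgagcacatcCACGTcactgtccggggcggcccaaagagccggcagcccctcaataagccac
Pdk4, chr6:5496279-5496528, minus strand: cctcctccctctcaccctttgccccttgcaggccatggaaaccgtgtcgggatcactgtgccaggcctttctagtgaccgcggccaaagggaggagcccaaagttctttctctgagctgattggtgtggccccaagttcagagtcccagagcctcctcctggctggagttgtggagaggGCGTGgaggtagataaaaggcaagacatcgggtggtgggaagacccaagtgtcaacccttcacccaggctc
Egln1, chr8:124949255-124949504, minus strand: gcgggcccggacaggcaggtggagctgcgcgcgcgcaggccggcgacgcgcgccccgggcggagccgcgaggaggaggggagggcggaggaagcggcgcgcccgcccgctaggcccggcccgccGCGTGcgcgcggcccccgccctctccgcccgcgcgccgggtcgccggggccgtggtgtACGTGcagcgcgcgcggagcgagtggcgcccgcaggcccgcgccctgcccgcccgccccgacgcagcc
Ankrd37, chr8:45999851-46000100, minus strand: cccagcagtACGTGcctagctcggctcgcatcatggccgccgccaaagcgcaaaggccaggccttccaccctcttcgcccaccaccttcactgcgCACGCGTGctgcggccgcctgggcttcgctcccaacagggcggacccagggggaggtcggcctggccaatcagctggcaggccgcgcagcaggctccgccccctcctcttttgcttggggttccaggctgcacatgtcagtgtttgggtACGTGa
Ddit4, chr10:59951771-59952020, minus strand: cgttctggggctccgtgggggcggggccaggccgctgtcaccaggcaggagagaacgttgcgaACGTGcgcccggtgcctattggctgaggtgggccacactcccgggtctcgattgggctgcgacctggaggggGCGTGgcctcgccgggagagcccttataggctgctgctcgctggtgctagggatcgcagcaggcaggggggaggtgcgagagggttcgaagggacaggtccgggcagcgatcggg
Adm, chr7:110627407-110627656, plus strand: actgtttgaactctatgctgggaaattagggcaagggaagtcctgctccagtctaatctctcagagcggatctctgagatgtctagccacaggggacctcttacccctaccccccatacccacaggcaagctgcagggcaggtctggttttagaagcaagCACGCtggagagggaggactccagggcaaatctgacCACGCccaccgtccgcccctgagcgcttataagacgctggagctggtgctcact
The Hk2 stretch held 2 ACGTG matches and Adm 2 GCGTG matches. Ankrd37 held 2 of each, and its 2 GCGTG matches, on opposite strands, overlap as CACGCGTG. Egln1 and Ddit4 held 1 of each, and Pdk4 a single GCGTG. In windows of 300 bases that end 50 bases after the start, searched on both strands, ACGTG was found for 22 of the 33 members with a window (66.7%), against 21.8% of all 27025 genes with a window and 29.5% of the 9384 tested genes with one. GCGTG was found for 21 members (63.6%), against 35.2% and 56.8%. The GLI consensus GACCACCCA was found for 0 of the 33 members and for 0.289% of all genes. With so low a share over all genes, a count of 0 among 33 cannot show that members lack GLI sites. Bnip3l, Epas1, Ndrg1 and Slc2a3 had no window. A match describes the letters only, and binding was not measured here.

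The added ligand was read by the target genes of its own pathway. Gli1 averaged 0.131 FPKM in NIH-3T3 control and 147 with SHHN, and 0.583 and 120 in MLg. All 10 fibroblast markers averaged at least 1 FPKM in NIH-3T3 and 9 of 10 in MLg, where Thy1 stayed at or below 0.106 in every library. Their summed level was 17231 to 18411 FPKM in NIH-3T3 control and 11778 to 13106 with SHHN, without overlap, and 10631 to 12893 and 9801 to 11522 in MLg, and its part in the results below was not tested. None of 7 epithelial markers reached that mean in any group. The summed level of 5 endothelial markers ranged from 0.233 to 0.447 in MLg control and from 6.29 to 6.99 in MLg with SHHN, from Cdh5 and Tek, while Kdr stayed at or below 0.0128 in all 12 libraries. In NIH-3T3 that sum was 5.75 to 7.94 in control and 6.73 to 25.3 with SHHN, and its part in the results below was not tested. In bulk RNA, fewer cells of a type and less RNA per cell cannot be told apart. Spearman correlations between replicates ran from 0.973 to 0.995, and p-values measure only the spread between these samples, since the labels do not say that replicates were separate cultures.

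Most of the glycolytic transcripts that passed the test did so in NIH-3T3, and most of these rose with SHHN. There, 10 of the 24 tested glycolysis genes rose (41.7%) and 2 fell (8.33%), against 16.6% and 14.8% of all 12379 genes tested (31.4% in either direction). In MLg 2 rose and 2 fell (8.33% each), against 12.8% and 10.0% of all genes (22.8% in either direction). The median log2 change over these genes was 0.08 in NIH-3T3 and −0.03 in MLg, beside −0.01 and −0.00 over all genes tested. The 10 that rose in NIH-3T3 were Hk2, Pfkl, Pfkfb3, Tpi1, Pgk1, Pgam1, Eno1, Pkm, Ldha and Slc16a1. Pfkfb3 and Slc16a1 rose in MLg as well, Pdk4 fell in both lines, Eno2 fell in NIH-3T3 and Pdk2 in MLg. Fold changes here and below are on the log2(FPKM + 0.5) scale, with the standard error of the fit (SE), and adjusted p-values are from limma.

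**Figure D1:**
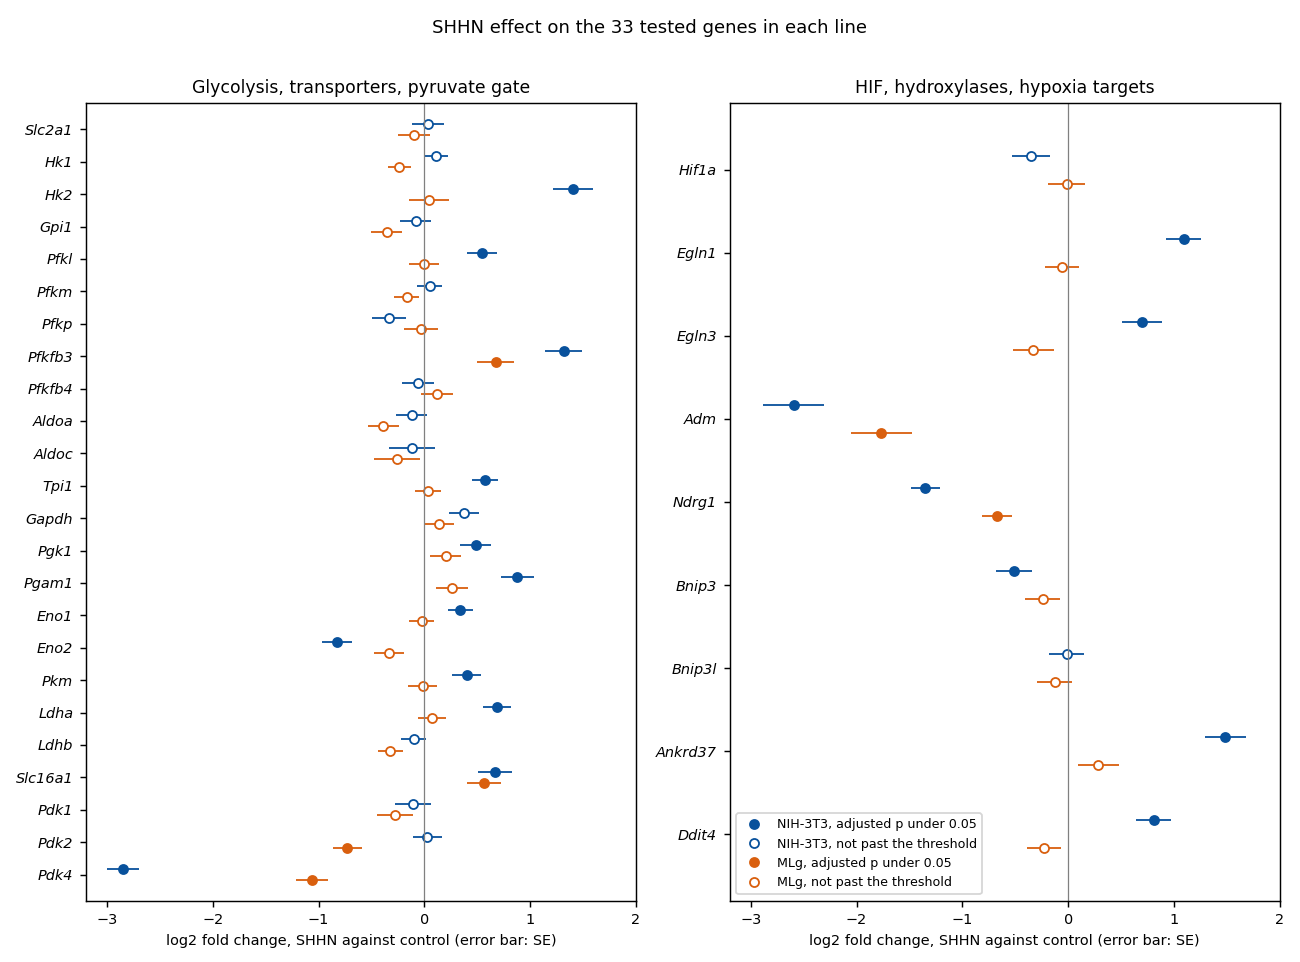
Log2 change with SHHN and its SE for each tested member, in NIH-3T3 and in MLg, with filled points for adjusted p under 0.05. Pdk4, Adm and Ndrg1 lie below 0 in both lines, and Hk2, Egln1, Ankrd37 and Ddit4 lie between 0.81 and 1.49 in NIH-3T3 and between −0.23 and 0.29 in MLg.

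At the entry of glucose, the main transporter of these cells did not pass the test in either line. Slc2a1 encodes GLUT1, the transporter of most cultured cells, and averaged 66.4 ± 3.32 FPKM (SD, n = 3) in NIH-3T3 control and 68.3 ± 8.70 with SHHN (log2 change 0.04, SE 0.15, adjusted p = 0.896). In MLg it averaged 32.1 ± 7.87 and 29.4 ± 1.57 (−0.10, SE 0.15, adjusted p = 0.718). Slc2a3, which encodes GLUT3, the neuronal transporter, was at most 0.119 FPKM in every library and was not tested.

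Hexokinase, which traps glucose as glucose 6-phosphate, differed by isoenzyme. Hk2, the inducible form, stood at 2.83, 2.25 and 2.22 FPKM in the NIH-3T3 control libraries and at 10.4, 5.68 and 6.36 with SHHN. The groups did not overlap, and the rise was 1.41 on the log2 scale (SE 0.19, adjusted p = 7.64e-05). In MLg control Hk2 was already at 5.82, 7.80 and 7.44, and with SHHN it was 7.22, 7.26 and 7.13 (0.05, SE 0.19, adjusted p = 0.905). Treated NIH-3T3 replicates 2 and 3 lay close to the MLg libraries and replicate 1 above them. Hk1, the broadly expressed form, averaged 25.7 ± 2.96 and 27.7 ± 1.60 in NIH-3T3 and 34.3 ± 2.16 and 28.9 ± 1.26 in MLg, with adjusted p of 0.472 and 0.14.

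At phosphofructokinase, the committed step, the liver-type subunit gene moved. Pfkl was 30.0, 34.1 and 26.9 FPKM in NIH-3T3 control and 55.5, 39.9 and 39.0 with SHHN, a rise of 0.54 (SE 0.14, adjusted p = 0.0108), and replicate 1 was the highest treated library. It did not pass when each line was fitted alone (adjusted p = 0.0664). In MLg Pfkl averaged 27.7 ± 2.92 and 27.6 ± 1.05 (adjusted p = 0.994). Pfkm and Pfkp, the muscle and platelet subunits, did not pass in either line, although Pfkp fell in NIH-3T3 without control replicate 1 (adjusted p = 0.0469, against 0.136 with it).

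Pfkfb3 and Pfkfb4 make and remove fructose 2,6-bisphosphate, the strongest activator of phosphofructokinase, and the kinase-dominant Pfkfb3 rose in both lines. In NIH-3T3 it stood at 2.25, 1.61 and 2.20 FPKM in control and at 4.17, 6.80 and 6.63 with SHHN (1.32, SE 0.17, adjusted p = 5.78e-05). MLg control libraries had 4.21, 3.82 and 4.54 and treated ones 7.16, 7.17 and 6.61 (0.67, SE 0.17, adjusted p = 0.0123). Treated and control libraries were apart in both lines, but the MLg call was lost without control replicate 2 (adjusted p = 0.0533). Pfkfb4 averaged between 2.55 and 2.81 in the 4 groups and did not pass in either line.

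The middle and lower enzymes of the pathway were among the most abundant transcripts of the set, and most of those that passed did so in NIH-3T3. Tpi1, which interconverts the triose phosphates, was 199, 218 and 175 FPKM in NIH-3T3 control and 312, 273 and 294 with SHHN (0.57, SE 0.12, adjusted p = 0.00264). Pgam1, a phosphoglycerate mutase, was 93.0, 132 and 103 in control and 238, 184 and 182 with SHHN (0.88, SE 0.15, adjusted p = 5.71e-04). Neither set of groups overlapped, and both calls held in every alternative tried. In MLg Tpi1 averaged 210 ± 27.1 and 214 ± 3.22 (adjusted p = 0.884), and Pgam1 140 ± 17.7 and 168 ± 10.7 (adjusted p = 0.26).

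Pgk1, Eno1 and Pkm passed in NIH-3T3 by a small margin. Pgk1, phosphoglycerate kinase, was 122, 139 and 155 FPKM in control and 239, 157 and 192 with SHHN (0.48, SE 0.15, adjusted p = 0.023). Eno1, the ubiquitous enolase, was 228, 270 and 246 in control and 344, 299 and 300 with SHHN (0.34, SE 0.12, adjusted p = 0.0457). Pkm, pyruvate kinase of most dividing cells, was 361, 394 and 343 in control and 560, 454 and 439 with SHHN (0.40, SE 0.14, adjusted p = 0.041). In all 3 genes treated libraries were above every control library, and treated replicate 1 was the highest. Without that library none of the 3 passed, with adjusted p of 0.104 for Pgk1, 0.156 for Eno1 and 0.162 for Pkm, and the count of glycolysis genes that rose was 7 of 24. Pgk1 was also lost when each line was fitted alone (0.105) and without control replicate 1 (0.0789) or treated replicate 3 (0.0509). Eno1 was lost in 14 of 21 alternatives (adjusted p up to 0.156), among them those without any 1 of MLg control replicate 1, the 3 treated MLg libraries, NIH-3T3 control replicate 1 or 3 and the 3 treated NIH-3T3 libraries. Pkm was lost in 12 (up to 0.162), among them those without MLg control replicate 2, a treated MLg library, NIH-3T3 control replicate 1 or 3, or NIH-3T3 treated replicate 2. Eno1b, a near copy listed at 53.2 to 100 FPKM, may share reads with Eno1, and with both summed the adjusted p was 0.0643.

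Gapdh, the most abundant member, was 918, 807 and 808 FPKM in NIH-3T3 control and 1249, 972 and 1073 with SHHN. The groups did not overlap, yet the difference of 0.37 did not pass (SE 0.14, adjusted p = 0.059). It passed after quantile normalization (0.67, adjusted p = 0.00203) and without control replicate 1 (0.0444) or treated replicate 2 (0.0461). Gpi1 and Aldoa, which isomerise and split the sugar phosphates, did not pass in NIH-3T3. Gpi1 averaged 143 ± 19.4 and 136 ± 25.5 there (adjusted p = 0.719). In MLg Gpi1 averaged 191 ± 23.4 and 149 ± 9.79 without overlap, and it did not pass (−0.36, adjusted p = 0.11). Aldoc did not pass in either line (adjusted p = 0.723 and 0.46). In MLg Aldoa averaged 360 ± 48.8 and 274 ± 22.1 (−0.39, adjusted p = 0.0703), and it passed without MLg control replicate 3 (0.0303) or NIH-3T3 treated replicate 1 (0.0462).

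Eno2, the neuron-enriched enolase, went the other way from Eno1. In NIH-3T3 it was 15.4, 16.6 and 11.9 FPKM in control and 8.56, 7.60 and 7.74 with SHHN, a fall of 0.83 on the log2 scale (SE 0.14, adjusted p = 5.35e-04). All treated libraries were below all controls. MLg averaged 22.0 ± 3.36 and 17.3 ± 0.876 (−0.33, adjusted p = 0.118), a difference that passed without control replicate 3 (0.0404).

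At the lactate end, the pyruvate-reducing isoenzyme and the exporter rose in NIH-3T3. Ldha was 202, 224 and 195 FPKM in control and 395, 293 and 320 with SHHN (0.69, SE 0.13, adjusted p = 0.00144). Ldhb, the isoenzyme that favours lactate oxidation, averaged 75.4 ± 11.3 and 69.8 ± 1.75 (adjusted p = 0.57). In MLg Ldha averaged 208 ± 27.6 and 217 ± 8.73 (adjusted p = 0.764), with overlapping groups. Ldhb in MLg averaged 68.8 ± 6.24 and 54.8 ± 3.91 (−0.32, adjusted p = 0.0693), and with the replicate number as a block its adjusted p was 0.0461. It also passed with quantile normalization (0.0352), with 6 libraries per fit (0.0487) and without NIH-3T3 control replicate 1 (0.0448) or 2 (0.0336).

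Slc16a1, the lactate carrier MCT1, rose in both lines. Its NIH-3T3 libraries stood at 20.3, 15.5 and 20.0 FPKM in control and at 26.1, 28.2 and 35.4 with SHHN (0.67, SE 0.16, adjusted p = 0.00626). MLg libraries stood at 5.44, 6.17 and 8.06 in control and at 10.2, 9.08 and 10.2 with SHHN (0.57, SE 0.16, adjusted p = 0.0216). No treated library overlapped a control in either line, and the effects differed by 0.10 (SE 0.23, adjusted p = 0.811). The MLg call was lost without control replicate 1 (0.0962) or 2 (0.0742) and without treated replicate 1 (0.0735) or 3 (0.0762). Slc16a3, the MCT4 exporter known as a hypoxia target, was at most 0.663 FPKM in any library and was not tested.

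The largest change of the glycolysis group was at the gate to the mitochondrion. Pdk4, the kinase gene induced by fasting and fatty acids, stood at 41.4, 35.5 and 44.2 FPKM in NIH-3T3 control and at 4.25, 5.49 and 5.86 with SHHN. The fall was 2.85 on the log2 scale (SE 0.15, adjusted p = 1.48e-08). In MLg it went from 12.9, 14.9 and 18.2 to 6.39, 7.48 and 7.19, a fall of 1.06 (SE 0.15, adjusted p = 1.46e-04). Every treated library was below every control in both lines, and both calls held in every alternative tried.

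The other pyruvate dehydrogenase kinases did not follow Pdk4 in NIH-3T3. Pdk2, a widely expressed form, was 14.1, 15.0 and 12.4 FPKM in control and 11.4, 15.6 and 15.6 with SHHN there (adjusted p = 0.915). In MLg it was 16.3, 16.4 and 14.0 in control and 9.16, 9.83 and 8.54 with SHHN, without overlap, a fall of 0.73 (SE 0.14, adjusted p = 0.00152). Pdk1, the hypoxia-induced form, averaged 12.5 ± 2.33 and 11.5 ± 1.94 in NIH-3T3 and 6.16 ± 0.995 and 4.97 ± 0.493 in MLg, and it did not pass in either line (adjusted p = 0.671 and 0.288).

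**Figure D2:**
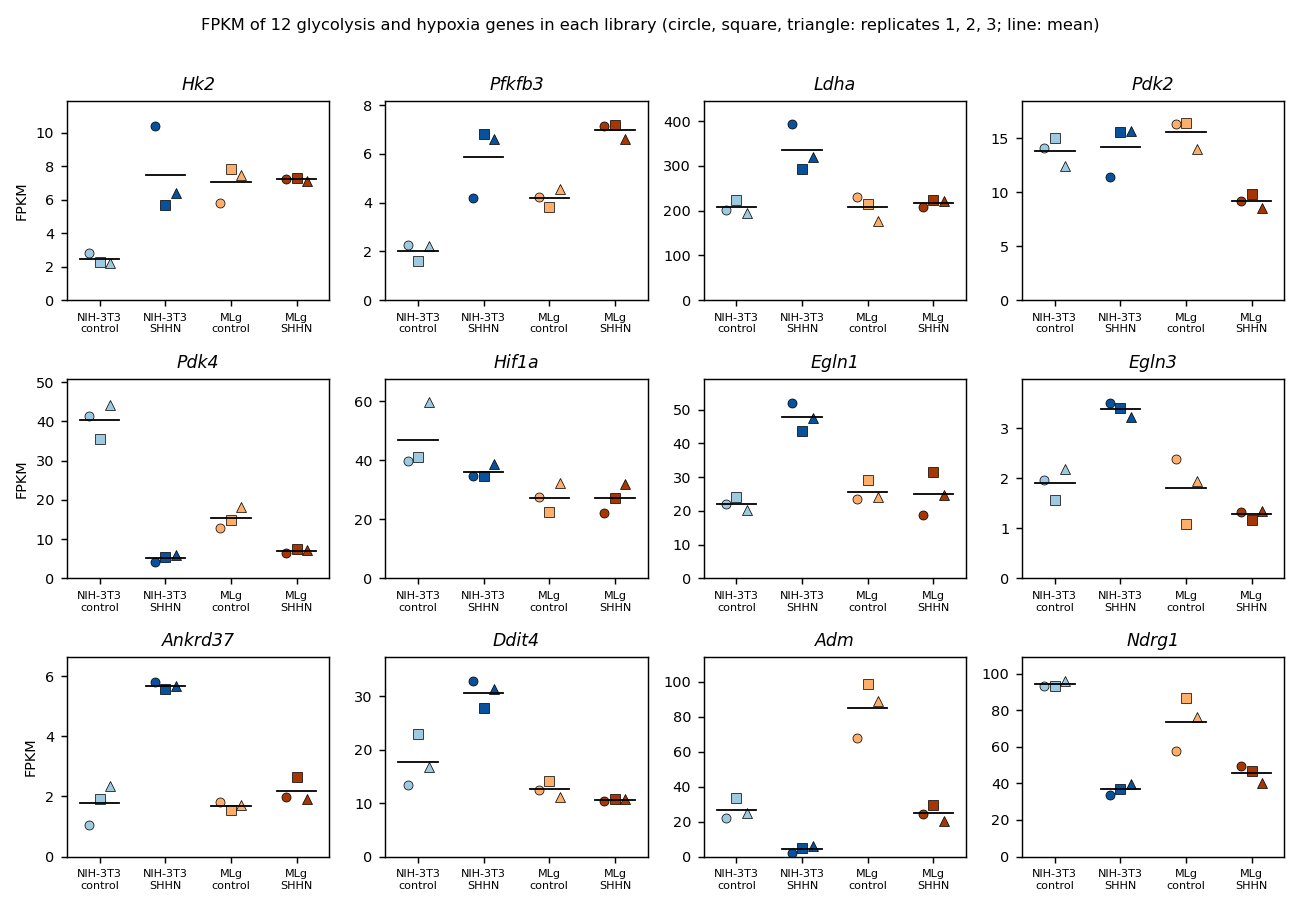
FPKM (linear axes from 0) of 12 members in each of the 12 libraries, with a point for each library, shaped by replicate number, and a line for the group mean. Hk2, Ldha, Egln1 and Ankrd37 separate in NIH-3T3 and lie close together in MLg, and Pdk4, Adm and Ndrg1 separate in both lines.

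The makeup of isoenzyme families followed from these single-gene changes and is given as shares of summed FPKM, with no test, since 3 libraries against 3 cannot give an exact permutation p below 0.1. Hk2 made up 8.68% ± 1.15 (SD, n = 3) of Hk1 plus Hk2 in NIH-3T3 control and 21.0% ± 5.73 with SHHN, and in MLg 17.0% ± 2.35 and 19.95% ± 0.571. Pfkfb3 made up 42.1% ± 8.80 of Pfkfb3 plus Pfkfb4 in NIH-3T3 control and 68.5% ± 3.15 with SHHN, against 62.2% ± 2.62 and 71.3% ± 1.41 in MLg. In both pairs of genes the treated NIH-3T3 mean was closer to the MLg means than the control mean was. The Pfkfb3 share leaves out Pfkfb1 and Pfkfb2, which are not among the 37 genes. Pfkfb2 averaged 6.36 ± 1.77 and 6.05 ± 1.29 FPKM in NIH-3T3 and 6.49 ± 1.42 and 6.57 ± 0.496 in MLg. In NIH-3T3 control Pfkfb3 itself averaged 2.02 ± 0.359. Pfkl went from 44.45% ± 1.485 to 53.6% ± 5.22 of Pfkl plus Pfkm plus Pfkp in NIH-3T3. Its MLg shares were 39.5% ± 3.80 and 41.7% ± 1.94. Eno2 went from 5.59% ± 0.868 to 2.48% ± 0.0475 of Eno1 plus Eno2 in NIH-3T3, with 9.47% ± 0.951 and 7.74% ± 0.210 in MLg. For Pfkl and Eno2 the treated NIH-3T3 mean was farther from the MLg means than the control mean was. The Eno2 share leaves out Eno1b (53.2 to 100 FPKM) and Eno3, which are not among the 37 genes. Eno3 averaged 4.23 ± 0.390 and 2.14 ± 0.225 FPKM in NIH-3T3 and 16.0 ± 2.02 and 12.7 ± 0.800 in MLg. Ldha made up 73.4% ± 2.0 of Ldha plus Ldhb in NIH-3T3 control and 82.6% ± 2.44 with SHHN, and 75.0% ± 2.26 and 79.8% ± 1.19 in MLg. Pdk4 went from 60.5% ± 1.92 to 16.8% ± 1.83 of Pdk1 plus Pdk2 plus Pdk4 in NIH-3T3, and from 41.2% ± 4.59 to 33.1% ± 1.67 in MLg. Pdk3, the fourth such kinase and not among the 37 genes, averaged 20.4 ± 2.17 and 21.1 ± 2.57 FPKM in NIH-3T3 and 13.9 ± 1.87 and 17.7 ± 1.43 in MLg and did not pass in either line (adjusted p = 0.837 and 0.0782). In MLg it passed as higher with the replicate number as a block (adjusted p = 0.0314) and without control replicate 3 (0.0334). With Pdk3 included, Pdk4 made up 46.3% ± 1.77 of the 4 kinases in NIH-3T3 control and 9.99% ± 1.27 with SHHN, and 29.9% ± 2.75 and 18.0% ± 0.788 in MLg. The 4 kinases summed to 87.0 ± 7.27 and 51.9 ± 4.37 FPKM in NIH-3T3 and to 50.9 ± 4.17 and 38.9 ± 1.90 in MLg.

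**Figure D3:**
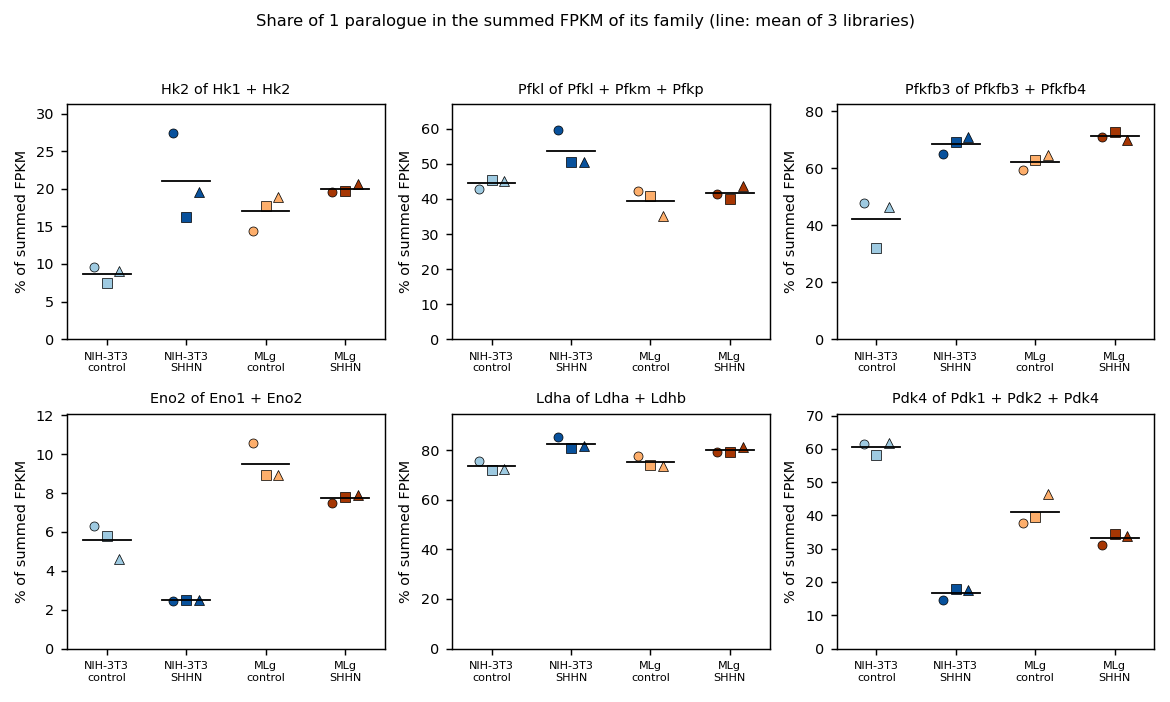
Share (%) of 1 isoenzyme in the summed FPKM of the paralogues named above each panel, 1 point for each library and a line for the group mean. The Pdk4 share of Pdk1, Pdk2 and Pdk4 in NIH-3T3 drops from 58.3% to 61.8% in control to 14.7% to 18.0% with SHHN.

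Summed over the 26 glycolysis genes, NIH-3T3 control libraries held 2755 to 3005 FPKM and treated ones 3309 to 4173, the highest sum being that of treated replicate 1. MLg averaged 3351 ± 269 in control and 3351 ± 106 with SHHN. These sums are dominated by Gapdh, Pkm, Aldoa and Eno1 and have no test.

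The hypoxia group moved in both directions in NIH-3T3. Of its 9 tested genes 4 rose (44.4%) and 3 fell (33.3%), against 16.6% and 14.8% of all genes tested. In MLg 0 rose and 2 fell (22.2%), against 12.8% and 10.0%. The median log2 change was −0.01 in NIH-3T3 and −0.23 in MLg. Egln1 and Egln3, which encode prolyl hydroxylases, rose in NIH-3T3, as did Ankrd37 and Ddit4. Adm and Ndrg1 fell in both lines and Bnip3 fell in NIH-3T3. Egln2, another prolyl hydroxylase gene, is not a member and was listed with the HIF partners and regulators below.

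The transcript of the factor itself did not pass in either line. Hif1a, the oxygen-regulated subunit, was 39.8, 40.9 and 59.6 FPKM in NIH-3T3 control and 34.7, 34.5 and 38.7 with SHHN (−0.35, SE 0.18, adjusted p = 0.154). Control replicate 3 was the highest of all. In MLg it averaged 27.3 ± 4.82 and 27.1 ± 4.86 (adjusted p = 0.973). Epas1, the HIF-2 alpha subunit of endothelium and other tissues, was at most 0.136 FPKM in any library and was not tested. HIF-1 alpha is controlled mainly at the protein level, which was not measured here.

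Transcripts of the member hydroxylases Egln1 and Egln3 rose in NIH-3T3. Egln1, which encodes PHD2, the main oxygen sensor, was 22.1, 24.0 and 20.3 FPKM in control and 52.1, 43.6 and 47.5 with SHHN (1.09, SE 0.16, adjusted p = 1.59e-04). In MLg it was 23.5, 29.0 and 24.2 in control and 18.8, 31.5 and 24.6 with SHHN (−0.06, adjusted p = 0.845), with overlapping groups. Egln3, which encodes PHD3, was 1.96, 1.56 and 2.19 in NIH-3T3 control and 3.50, 3.41 and 3.22 with SHHN (0.70, SE 0.19, adjusted p = 0.014). That call was lost after quantile normalization (adjusted p = 0.0561). In MLg Egln3 averaged 1.80 ± 0.659 and 1.28 ± 0.0973 (−0.33, adjusted p = 0.264), and it passed as lower without control replicate 2 (0.0246), the lowest control library.

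Ankrd37 and Ddit4 rose in NIH-3T3 along with Egln1 and Egln3. Ankrd37, an ankyrin-repeat gene known as a target of HIF-1, was 1.05, 1.92 and 2.35 FPKM in NIH-3T3 control and 5.79, 5.55 and 5.67 with SHHN (1.49, SE 0.20, adjusted p = 5.35e-05). In MLg it averaged 1.69 ± 0.136 and 2.18 ± 0.393 (0.29, adjusted p = 0.35). Ddit4, which encodes the mTORC1 inhibitor REDD1, was 13.4, 22.9 and 16.8 in NIH-3T3 control and 32.9, 27.8 and 31.4 with SHHN (0.81, SE 0.16, adjusted p = 0.00176). Its MLg libraries stood at 12.5, 14.1 and 11.2 in control and at 10.5, 10.7 and 10.8 with SHHN (−0.23, adjusted p = 0.368). Treated libraries of both genes were above every control in NIH-3T3.

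Adm and Ndrg1, both classical hypoxia targets, fell in both lines. Adm, the precursor of the vasodilator adrenomedullin, was 21.9, 33.5 and 25.1 FPKM in NIH-3T3 control and 2.06, 4.82 and 6.00 with SHHN, a fall of 2.59 (SE 0.29, adjusted p = 1.14e-05). In MLg it stood higher, at 67.8, 99.0 and 88.9 in control and 24.2, 29.7 and 20.1 with SHHN, a fall of 1.77 (SE 0.29, adjusted p = 4.49e-04). The treated MLg libraries overlapped the range of the NIH-3T3 controls. Ndrg1, a stress and differentiation gene, was 93.3, 93.1 and 96.0 in NIH-3T3 control and 33.5, 37.2 and 39.4 with SHHN, a fall of 1.35 (SE 0.14, adjusted p = 5.92e-06). MLg had 57.6, 86.4 and 76.1 in control and 49.4, 46.9 and 40.0 with SHHN, a fall of 0.67 (SE 0.14, adjusted p = 0.00297). In neither line did treated and control libraries of these genes overlap, and all 4 calls held in every alternative tried.

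Of the mitophagy receptors, Bnip3 fell in NIH-3T3 and Bnip3l did not pass. Bnip3 was 27.9, 22.0 and 24.9 FPKM in NIH-3T3 control and 16.1, 13.9 and 23.0 with SHHN (−0.51, SE 0.17, adjusted p = 0.0342), and the groups overlapped. It did not pass without control replicate 1 (0.109) or 3 (0.0766), without treated replicate 1 (0.102) or 2 (0.16), without the filter on low values (0.0553) or with 6 libraries per fit (0.125). In MLg Bnip3 averaged 18.7 ± 2.93 and 15.6 ± 0.636 (−0.24, adjusted p = 0.362), and there the groups did not overlap. Bnip3l averaged 46.3 ± 8.39 and 45.6 ± 7.09 in NIH-3T3 (adjusted p = 0.968) and 43.8 ± 8.79 and 39.5 ± 2.52 in MLg (adjusted p = 0.649). Car9, the tumour-associated carbonic anhydrase, was at most 0.484 FPKM in any library and was not tested.

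The difference between the lines was tested directly as the SHHN effect in NIH-3T3 minus that in MLg. Of the 24 glycolysis genes 3 differed upward and 1 downward, against 7.48% and 5.95% of all genes tested (13.4% in either direction), and of the 9 hypoxia genes 4 upward and 1 downward. Hk2 led the glycolysis genes at 1.36 (SE 0.27, adjusted p = 0.00504). Pdk4, whose fall was steeper in NIH-3T3, differed by −1.79 (SE 0.21, adjusted p = 1.35e-04). Among the hypoxia genes Egln1 differed by 1.15 (SE 0.23, adjusted p = 0.00501), Ankrd37 by 1.20 (SE 0.28, adjusted p = 0.0115) and Ddit4 by 1.04 (SE 0.23, adjusted p = 0.00915). These 5 differences held in every alternative tried.

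The other 4 differences were less stable. Ldha differed by 0.61 (SE 0.19, adjusted p = 0.0473) and was lost in 13 of 20 alternatives, the replicate block among them (0.0743). Its adjusted p was 0.0648 to 0.115 without MLg control replicate 1 or 2, any treated MLg library, NIH-3T3 control replicate 1 or 3, or NIH-3T3 treated replicate 1 or 3. Pdk2 differed by 0.75 (adjusted p = 0.022) and did not pass without MLg control replicate 1 (0.052) or 2 (0.0588), MLg treated replicate 3 (0.0651), NIH-3T3 control replicate 3 (0.0555), or NIH-3T3 treated replicate 2 (0.0635) or 3 (0.0517). Egln3 differed by 1.03 (adjusted p = 0.0247) and was lost after quantile normalization (0.0523) and without MLg control replicate 1 (0.0554), MLg treated replicate 2 (0.0588) or 3 (0.051), or NIH-3T3 treated replicate 2 (0.0558). Ndrg1 differed by −0.68 (adjusted p = 0.0372) and was lost in 9 of 20 alternatives, with 0.0536 under the block and 0.0543 to 0.0951 without MLg control replicate 1, MLg treated replicate 1 or 2, NIH-3T3 control replicate 1 or 3, or NIH-3T3 treated replicate 1 or 2. For Pfkl, Tpi1, Pgam1, Pgk1, Eno1 and Pkm, which passed in NIH-3T3 and not in MLg, the difference did not pass. Their values ran from 0.28 for Pgk1 (adjusted p = 0.405) to 0.62 for Pgam1 (adjusted p = 0.0783). Eno2 and Bnip3 fell in NIH-3T3 and did not pass in MLg, and their differences did not pass either. These were −0.50 for Eno2 (adjusted p = 0.127) and −0.27 for Bnip3 (adjusted p = 0.498). Pgam1 passed without NIH-3T3 control replicate 2 (0.0195) or MLg control replicate 3 (0.0453), Tpi1 without the same libraries (0.0282 and 0.0225), and both after quantile normalization (0.0421 and 0.0224). Pfkl passed without NIH-3T3 control replicate 2 (0.0475), and Pfkfb3, at 0.64 (adjusted p = 0.107), without NIH-3T3 treated replicate 1 (0.0164).

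Without ligand the lines differed in 17 of the 33 tested members (51.5%), against 50.1% of all genes tested. Of the 24 glycolysis genes 4 were higher and 9 lower in NIH-3T3 control than in MLg control, and of the 9 hypoxia genes 3 were higher and 1 lower, against 24.4% higher and 25.7% lower among all genes. Slc16a1 was higher in NIH-3T3 by 1.44 (SE 0.16, adjusted p = 5.59e-06), Pdk4 by 1.38 (SE 0.15, adjusted p = 4.77e-06) and Slc2a1 by 1.07 (SE 0.15, adjusted p = 5.79e-05). Pdk1 was higher by 0.96 (SE 0.17, adjusted p = 3.30e-04) and Hif1a by 0.75 (SE 0.18, adjusted p = 0.00295). The transcripts higher in the embryonic line thus included those of GLUT1, MCT1, 2 pyruvate dehydrogenase kinases and the HIF subunit.

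Of the 10 members lower in NIH-3T3 control, 9 were glycolysis genes, as were 24 of the 33 tested members. Adm, at −1.65 (SE 0.29, adjusted p = 3.04e-04), was the hypoxia gene among them. Pfkp differed by −1.48 (SE 0.16, adjusted p = 4.40e-06), Hk2 by −1.35 (SE 0.19, adjusted p = 5.05e-05) and Pfkfb3 by −0.90 (SE 0.17, adjusted p = 7.08e-04). Pgk1, Eno2 and Hk1 differed by −0.70, −0.57 and −0.41, with adjusted p of 0.00133, 0.00424 and 0.00617. Aldoc, the brain aldolase, differed by −0.89. It was at most 0.229 FPKM in NIH-3T3 and passed the filter only through MLg, where it was 0.264 to 0.947. A lower call in NIH-3T3 was thus favoured in advance. The call is kept in the counts given for the lines but is not read as a result. Gpi1 and Pkm were lower by a small margin (−0.42 and −0.37, adjusted p = 0.0324 and 0.0402), and Ndrg1 and Ddit4 were higher by one (0.38 and 0.44, adjusted p = 0.0381 and 0.0352). Each was lost in at least 6 of 21 alternatives, and Ddit4 and Gpi1 overlapped between the lines. Without 1 library the adjusted p reached 0.115 for Gpi1 (NIH-3T3 control replicate 3), 0.164 for Pkm and 0.186 for Ndrg1 (both MLg control replicate 1), and 0.141 for Ddit4 (NIH-3T3 control replicate 2).

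The comparison of the lines and the SHHN effects share their control libraries, so their values are set side by side without a correlation. Hk2, Pfkfb3, Pgk1 and Pkm were lower in NIH-3T3 control and rose there with SHHN, Pgk1 and Pkm by a small margin. Pdk4 and Ndrg1 were higher in NIH-3T3 control and fell there. Other members did not follow either order: Slc16a1 and Ddit4 were higher in NIH-3T3 control and rose, and Eno2 and Adm were lower there and fell. With SHHN, Hk2 averaged 7.49 ± 2.56 FPKM in NIH-3T3 and 7.21 ± 0.0671 in MLg, Pfkfb3 5.87 ± 1.47 and 6.98 ± 0.318, Pdk4 5.20 ± 0.842 and 7.02 ± 0.565, and Ndrg1 36.7 ± 2.97 and 45.4 ± 4.83. Pgk1 averaged 196 ± 41.3 in NIH-3T3 and 259 ± 23.4 in MLg with SHHN, and Pkm 484 ± 66.0 and 466 ± 18.9. The lines were not tested against each other under SHHN. The means of Egln1, Ankrd37 and Ddit4 were farther apart between the lines with SHHN than without. Their control means were 22.1 and 25.6, 1.77 and 1.69, and 17.7 and 12.6 in NIH-3T3 and MLg, and their SHHN means 47.8 and 24.9, 5.67 and 2.18, and 30.7 and 10.7.

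**Figure D4:**
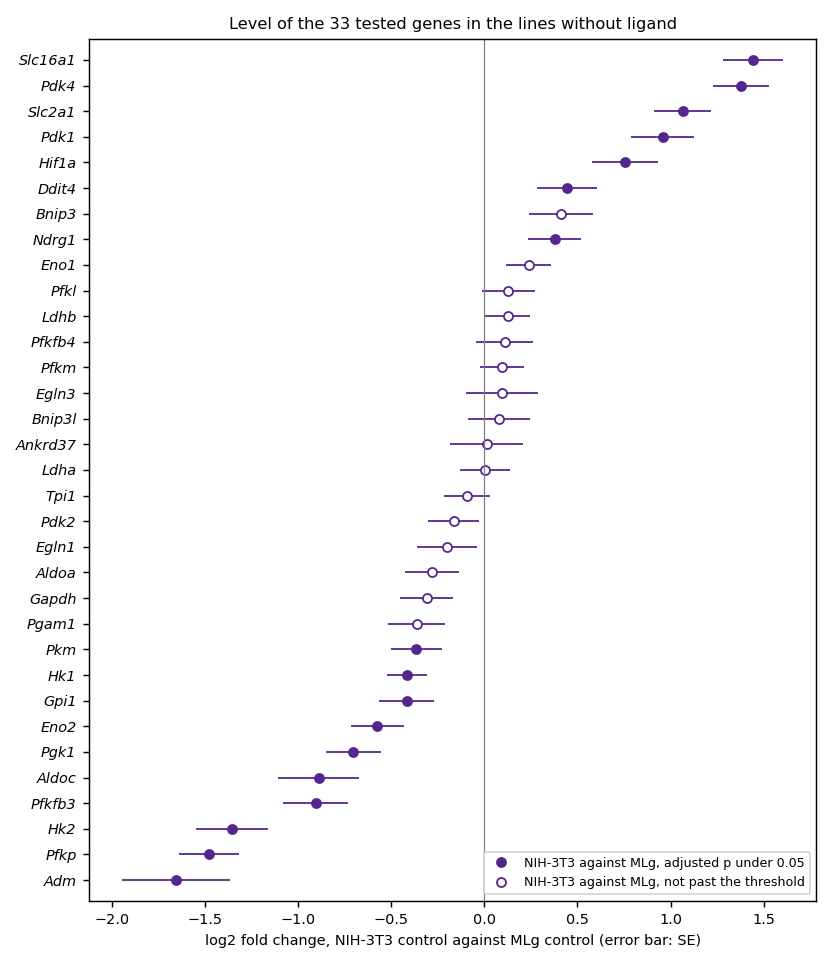
Log2 difference between NIH-3T3 control and MLg control with its SE for each tested member, with filled points for adjusted p under 0.05. Slc16a1, Pdk4 and Slc2a1 lie highest and Adm, Pfkp and Hk2 lowest.

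Neighbouring pathways were read from lists of genes that are not members, also chosen with earlier results of these data known. Of 22 tested genes of glycogen metabolism and further glycolytic isoforms (of 37 listed), 2 rose and 4 fell in NIH-3T3, and 5 rose and 1 fell in MLg (27.3% called in each line, against 31.4% and 22.8% of all genes). Pygm and Pygb, glycogen phosphorylases of muscle and brain, were higher with SHHN in both lines. Pygm went from 0.848 ± 0.222 to 4.34 ± 0.931 FPKM in NIH-3T3 (1.84, SE 0.18, adjusted p = 3.09e-06), and Pygb from 42.6 ± 2.26 to 81.3 ± 4.81 in MLg (0.92, SE 0.10, adjusted p = 8.33e-06). The smaller rises were 0.65 for Pygm in MLg (adjusted p = 0.0165), which was lost without MLg control replicate 1 (0.0686) and treated replicate 1 (0.0534) or 3 (0.0633), and 0.54 for Pygb in NIH-3T3 (adjusted p = 7.34e-04). Eno3, the muscle enolase, fell in NIH-3T3 by 0.84 (SE 0.13, adjusted p = 2.04e-04). Tigar, a fructose bisphosphatase, rose in MLg by 0.63 (SE 0.15, adjusted p = 0.00897), a call lost without MLg treated replicate 1 (0.0541).

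Of 36 tested hypoxia targets outside the set (of 40 in the table), 8 rose and 15 fell in NIH-3T3 (63.9% called) and 5 rose and 11 fell in MLg (44.4%), against 31.4% and 22.8% of all genes tested. Their median log2 changes were −0.29 and −0.23. Lox, the collagen crosslinking enzyme, went from 465 ± 97.5 to 78.3 ± 24.0 FPKM in NIH-3T3, a fall of 2.59 (SE 0.21, adjusted p = 6.33e-07). In MLg Lox fell too (adjusted p = 1.15e-04), with a log2 change of −1.60 to −1.46 over the alternatives. Both falls held in every alternative tried. Tgfbi, a secreted matrix protein, fell by 2.35 in NIH-3T3 (SE 0.18, adjusted p = 2.60e-07) and by 1.92 in MLg (SE 0.18, adjusted p = 2.81e-06). Bhlhe41, a circadian repressor, rose in MLg from 3.80 ± 0.710 to 16.2 ± 1.46 (1.97, SE 0.18, adjusted p = 2.64e-06). It rose in NIH-3T3 as well (adjusted p = 0.00289), with a log2 change of 0.57 to 1.36 over the alternatives. Both rises held in every alternative tried.

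Among 18 tested partners and regulators of HIF, 0 rose and 3 fell in NIH-3T3 (16.7%), and 2 rose and 2 fell in MLg (22.2%; 2 called under the replicate block), against 31.4% and 22.8% of all genes tested. Cited2, which competes with HIF-1 alpha for the coactivators CBP and p300, was 124 ± 4.66 in NIH-3T3 control and 36.9 ± 3.57 with SHHN (−1.74, SE 0.11, adjusted p = 3.90e-08). Its MLg means were 57.6 ± 4.12 and 25.6 ± 1.96 (−1.16, SE 0.11, adjusted p = 2.86e-06). Both falls held in every alternative tried. Gnb2l1, the scaffold RACK1, fell in NIH-3T3 by 0.51 (adjusted p = 0.0134), but its change was −0.02 after quantile normalization (adjusted p = 0.925), and it was lost with 6 libraries per fit (0.0779) and without treated replicate 2 (0.0557). Hsp90aa1, a chaperone of HIF-1 alpha, rose in MLg by 0.39 (adjusted p = 0.0192), a call lost without MLg control replicate 1 (0.0539) or 2 (0.0817) or treated replicate 2 (0.0543) or 3 (0.0939).

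In the pentose phosphate pathway, which branches from glucose 6-phosphate, 1 of 8 genes rose and 1 fell in NIH-3T3, and 0 rose and 2 fell in MLg (25.0% called in each, against 31.4% and 22.8% of all genes tested). H6pd, the first enzyme of the pathway inside the endoplasmic reticulum, fell in MLg from 69.9 ± 6.78 to 24.9 ± 2.83 FPKM (−1.47, SE 0.13, adjusted p = 1.90e-06). In NIH-3T3 its fall was 0.47 (adjusted p = 0.0125) and was lost without treated replicate 3 (0.0525). Taldo1, transaldolase, rose in NIH-3T3 by 0.70 (SE 0.14, adjusted p = 0.00168). G6pdx, the cytosolic first enzyme, fell in MLg by 0.32 (adjusted p = 0.0353), a call lost without MLg control replicate 1 (0.141) or 2 (0.0587) or treated replicate 1 (0.0831), 2 (0.0682) or 3 (0.141).

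Of 30 genes of pyruvate entry and the citric acid cycle, 1 rose and 2 fell in NIH-3T3 (10.0%) and 4 rose and 0 fell in MLg (13.3%), against 31.4% and 22.8% of all genes. Pcx, pyruvate carboxylase, rose from 7.83 ± 0.437 to 11.8 ± 1.08 FPKM in NIH-3T3 (0.56, SE 0.12, adjusted p = 0.00212) and from 21.1 ± 1.98 to 47.4 ± 4.16 in MLg (1.15, SE 0.12, adjusted p = 6.61e-06). Ogdh, of the oxoglutarate dehydrogenase complex, rose in MLg by 0.70 (SE 0.12, adjusted p = 8.15e-04). Idh3b, a subunit of isocitrate dehydrogenase, fell in NIH-3T3 by 0.42 (adjusted p = 0.0186), a call lost with 6 libraries per fit (0.0837) and without control replicate 2 (0.0614) or treated replicate 1 (0.058) or 2 (0.0691).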

How the data were processed

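RNA from 12 libraries was analysed as FPKM as deposited by the authors, with a single value for each gene in each library. Reads were demultiplexed with bcl2fastq, aligned with TopHat2 2.0.12 to mm10 and quantified with Cufflinks 2.2.1, per the submitters' processing notes, and the annotation is not given in the sources used here. Depth is unknown, so no counting interval is given. Library totals ran from 470218 to 659862 FPKM, over 13401 to 14793 genes above 0. In NIH-3T3 they were 545656 to 659862 in control and 494531 to 542742 with SHHN, without overlap. In MLg they were 502807 to 543999 and 470218 to 520381. The part of these totals in the results was not tested. Each column name gives the line, treatment and replicate of its sample, and 1 entry without values was left out.

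The 12379 genes that reached 0.5 FPKM in 3 or more libraries were tested as log2(FPKM + 0.5), which understates changes of low genes, with limma 3.58.1 in R 4.3.3 (4 group means in 1 fit, variance trend, two-sided). P-values were adjusted by Benjamini-Hochberg over all tested genes in each of 4 contrasts, with a threshold of 0.05. Errors of FPKM are SD over 3 libraries. The procedure was tested on simulated data. Promoter windows came from RefSeq (33 of 37 members matched).

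The members and lists were chosen with earlier results of these data known. All members were described, and of each further list the 2 genes with the smallest p that passed in each line. Vldlr and Pdk3 were chosen after their values were seen. Results were recomputed with a pseudocount of 0.1 or 1, with a stricter filter (1 FPKM) or none, after median-ratio scaling or quantile normalization, with each line fitted alone (6 libraries), with a replicate block, and without each library in turn. Summing near-identical copies of Eno1 and Aldoa was added after the data were seen. After removal of group means, same-numbered MLg control and treated libraries correlated across genes at 0.132, 0.157 and 0.241, so the block is given beside MLg results whose call it changed. In NIH-3T3 these values were −0.001, −0.101 and 0.027, so its libraries were not taken as paired. Between the control libraries of the lines they were −0.072, 0.445 and 0.395. The last 2 exceed the MLg values, but the labels do not say what a number marks, and this comparison was not blocked. Over all genes tested, 3020 were higher and 3185 lower in NIH-3T3 control, and 3318 and 3422 with the block.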

Additional observations from a re-analysis of the deposited data

Results flagged for a closer look

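The SHHN effect of these genes differed between the lines by the test of the difference itself (log2 effect in NIH-3T3 minus that in MLg). The members with a higher value in NIH-3T3 were Hk2 (1.36), Ankrd37 (1.20), Egln1 (1.15), Ddit4 (1.04), Egln3 (1.03), Pdk2 (0.75) and Ldha (0.61). Those with a lower value were Pdk4 (−1.79) and Ndrg1 (−0.68). For Egln3, Ldha and Pdk2 the difference did not pass in some alternatives, as given above, and the same holds for Ndrg1.

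Other genes of the further lists differed too, and values are given here for those named above. The difference was 1.19 for Pygm (adjusted p = 0.00715), 1.00 for H6pd (adjusted p = 0.00269), 0.74 for Taldo1 (adjusted p = 0.0249) and 0.60 for G6pdx (adjusted p = 0.0149). It was −1.14 for Bhlhe41 (adjusted p = 0.00948), −1.07 for Lox (adjusted p = 0.0316), −0.59 for Cited2 (adjusted p = 0.0202) and −0.58 for Pcx (adjusted p = 0.0315). Taldo1 was lost without MLg control replicate 1 (0.064) or 2 (0.0669), MLg treated replicate 1 (0.0684), NIH-3T3 control replicate 3 (0.0627), or NIH-3T3 treated replicate 2 (0.0551) or 3 (0.0555). Bhlhe41, which is low in NIH-3T3, was lost with a pseudocount of 0.1 (0.181). Lox was lost in 9 of 20 alternatives, the replicate block among them (0.0619), with 0.0564 to 0.0773 without MLg control replicate 1 or 2, any treated MLg library, or NIH-3T3 control replicate 1 or 3. Pcx was lost after median-ratio scaling (0.0613), and its adjusted p was 0.0506 to 0.0889 without MLg control replicate 1 or 3, MLg treated replicate 1 or 2, NIH-3T3 control replicate 1 or 3, or NIH-3T3 treated replicate 2 or 3. Cited2 was lost without MLg control replicate 1 (0.0504) or MLg treated replicate 2 (0.0612), and G6pdx without MLg treated replicate 3 (0.0502). H6pd and Pygm held in every alternative tried.

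Vldlr, a lipoprotein receptor gene known as a hypoxia target, differed by −1.64 (SE 0.24, adjusted p = 6.19e-04). It fell in NIH-3T3 from 0.969 ± 0.0493 to 0.460 ± 0.0441 FPKM (adjusted p = 0.014; 0.0534 with a pseudocount of 1) and rose in MLg from 12.8 ± 3.75 to 26.0 ± 1.73 (adjusted p = 5.32e-04). All 3 treated libraries lay below the controls in NIH-3T3 and above them in MLg.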

How the results depend on the processing

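Of the 51 calls of members over the 4 comparisons, 35 held in every alternative tried, 16 were lost in at least 1, and of 81 results that did not pass 14 passed in at least 1. Aldoc between the control groups, which passed the filter only through MLg, is among the 35. No call changed direction. With 6 libraries per fit the glycolysis genes that rose in NIH-3T3 were 6 in place of 10, HIF partners called there 1 in place of 3 and citric acid cycle genes 1 in place of 3 (6 after quantile normalization). Quantile normalization gave 5 in place of 3 glycolysis genes with a greater effect in NIH-3T3. Hypoxia genes higher in NIH-3T3 control were 1 in place of 3 with no filter and with 6 libraries per fit. Hypoxia genes with a lower effect in NIH-3T3 were 0 in place of 1 with no filter and under the replicate block, which also gave 2 in place of 4 HIF partners called in MLg. Between the control groups, whose numbers were not taken as pairs, the replicate block added Bnip3 as higher in NIH-3T3 (adjusted p = 0.0309, against 0.0588). The MLg glycolysis count that rose was 0 without MLg control replicate 2, and the count that fell was 4 without MLg control replicate 3. The count of glycolysis genes with a greater effect in NIH-3T3 was 6 without NIH-3T3 control replicate 2, 5 without MLg control replicate 3, and 1 without MLg control replicate 1 or 2, MLg treated replicate 3, NIH-3T3 control replicate 3 or NIH-3T3 treated replicate 3. Hypoxia genes higher in NIH-3T3 control were 1 without MLg control replicate 1 or NIH-3T3 control replicate 3. Leaving out 1 library gave 7 to 10 glycolysis genes that rose in NIH-3T3, 0 to 2 that rose and 2 to 4 that fell in MLg, 1 to 6 with a greater effect in NIH-3T3, 0 to 1 hypoxia genes with a lower one, and 1 to 4 hypoxia genes higher in NIH-3T3 control. Further lists gave 1 to 4 HIF partners, 2 to 7 other glycolysis genes and 1 to 3 pentose phosphate genes in MLg, and 1 to 4 pentose phosphate and 1 to 5 citric acid cycle genes in NIH-3T3. These changes come from fewer samples or another set of values, and beyond that the cause was not tested. No scaling moved the median change of all genes by over 0.1. Depth is unknown, so it cannot be said how far counting error limits members under 1 FPKM.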
